A study of Rattus norvegicus with 62 samples.

Results

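The nuclear genes for the subunits of the 5 mitochondrial complexes of oxidative phosphorylation were followed in rat L4 dorsal root ganglia (DRG), the ganglia that hold the cell bodies of sensory neurons, after chronic constriction injury (CCI), a neuropathic pain model in which ligatures are tied loosely around a peripheral nerve. The set held every protein-coding gene of the count tables whose symbol was one of Sdha, Sdhb, Sdhc and Sdhd or began with Nduf and one of the letters a, b, c, s and v and a digit, with Uqcr, with Cox and a digit between 4 and 8, or with Atp5. It came to 88 of 40982 genes on 20 chromosomes, with 40 in complex I, 4 in complex II, 8 in complex III, 18 in complex IV and 18 in complex V. The rule reads symbols and no measured value. Ndufa4 therefore stands with complex I by name although its protein is now placed in complex IV, and likely copies such as Ndufa13-ps1, Ndufa10l1, Atp5hl1 and Cox7a2l2 are members. Subunits encoded by the mitochondrial genome were not analysed here.

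Poly-A RNA was sequenced from 62 ganglia of male and female rats, and the series asks how the sexes differ in the DRG while neuropathic pain resolves. The groups were ganglia of the injured side (IL) and of the opposite side (CL) of males at 24 h (6 IL, 6 CL), males at 1 week (7 IL, 7 CL), males at 5 weeks (5 IL, 5 CL), females at 1 week (7 IL, 7 CL) and females at 5 weeks (6 IL, 6 CL) after CCI. All animals of these groups had been operated, and the labels name no strain, age or genetic change. A single ganglion level was taken whole, so neurons, satellite glia, Schwann cells and immune cells were read together. The opposite side belongs to operated animals and is not an unoperated control.

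Oxidative phosphorylation moves electrons from NADH through complex I, or from succinate through complex II, to ubiquinone, then through complex III and cytochrome c to complex IV, where oxygen is reduced. Complexes I, III and IV pump protons out of the matrix, and complex V, the ATP synthase, lets them back in to make ATP. Sensory neurons, with axons far longer than their cell bodies, depend on this supply for ion pumping and transport.

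Library totals ran from 18881795 to 33495720 counts in the table that holds males at 1 and 5 weeks (24 libraries) and from 16933304 to 26630282 in the table that holds males at 24 h and all females (38 libraries). Sex and table coincide at 1 and 5 weeks and cannot be told apart there. The label of side held in every arm for Atf3, a transcription factor that injured sensory neurons switch on, with log2 fold changes of 4.74, 4.80, 4.46, 5.27 and 4.58 for IL over CL in males at 24 h, 1 week and 5 weeks and females at 1 and 5 weeks (edgeR quasi-likelihood test, adjusted p of 1.31e-13 or less in each). Neuronal identity of the tissue was clear, since 14 sensory neuron markers summed to between 35133 and 41964 counts per 1000000 (CPM) in CL libraries. Ribosomal RNA took 0.970% ± 0.236 of the counts in IL and 2.25% ± 0.359 in CL ganglia of females at 1 week (SD, n = 7 each) with no overlap, while the sides overlapped in the other arms. The low-count filter kept 83 of the 88 subunits in the first of these tables and 82 in the second. Cox6a2, Cox7b2, Cox8b, Cox8c and Ndufb4l1-ps1 were tested nowhere, and Atp5hl1 only in males at 1 and 5 weeks.

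Subunit transcripts were lower on the injured side in all 4 arms at 1 and 5 weeks, and none passed the test at 24 h. At 24 h the 88 genes together took a lowest share of 0.806%, a median of 0.905% and a highest of 0.940% of all counts in IL ganglia, against 0.832%, 0.885% and 0.920% in CL ganglia. Those groups overlapped, and the IL ganglion was lower in 2 of 6 pairs as numbered. Numbers 5 and 6 of that arm did not vary together between sides, and with these crossed it was lower in 1 of 6. In males at 1 week the lowest, median and highest shares were 0.759%, 0.813% and 0.865% in IL, against 0.866%, 0.904% and 0.918% in CL ganglia. Every IL library lay below every CL library, and the mean share fell by 9.06%. The 5 IL ganglia of males at 5 weeks held 0.804, 0.836, 0.901, 0.836 and 0.855%, against 0.897, 0.930, 0.901, 0.897 and 0.944% in the 5 CL ganglia. Here 1 IL library, replicate 3, reached into the CL range, all 5 pairs were lower, and the mean share fell by 7.38%. Shares in females at 1 week were 0.812%, 0.836% and 0.881% in IL, against 0.853%, 0.899% and 0.923% in CL ganglia. The groups overlapped, all 7 pairs were lower, and the mean share fell by 5.71%. At 5 weeks the shares in females were 0.776%, 0.803% and 0.833% in IL, against 0.885%, 0.925% and 0.946% in CL ganglia, with no overlap and a mean share that fell by 12.7%. A whole ganglion was sequenced, so fewer cells of a type that is rich in these transcripts and less of them per cell cannot be told apart.

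**Figure D1:**
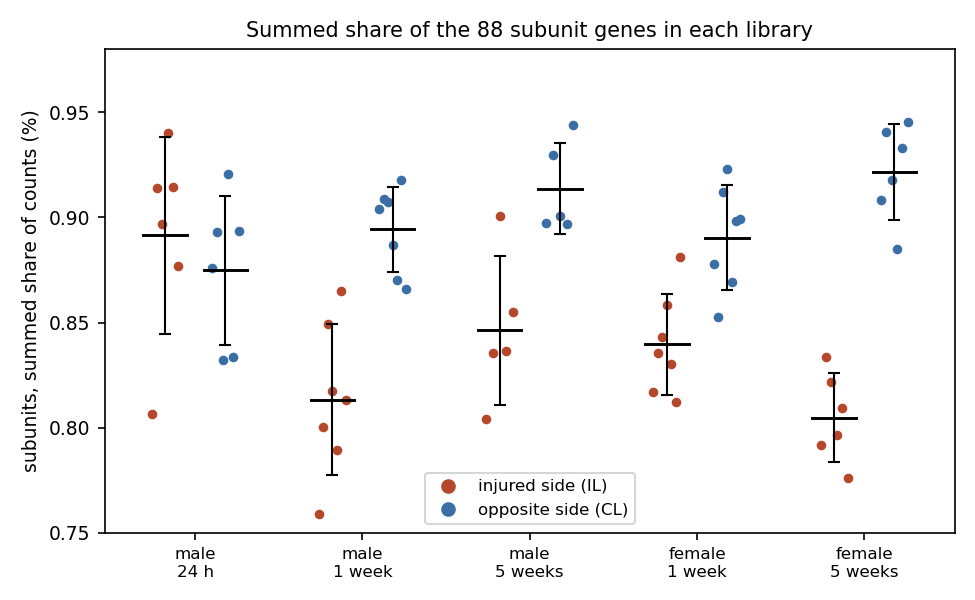
Each point is 1 library, the vertical axis gives the summed share of the 88 subunit genes in its counts in percent, and bars show the mean and SD of each group. Injured-side ganglia lie below opposite-side ganglia without overlap in males at 1 week and females at 5 weeks, and the sides overlap at 24 h.

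Gene by gene, edgeR's quasi-likelihood test with Benjamini-Hochberg adjustment over all genes called 50 of 83 subunits lower and 1 higher in males at 1 week. All tested genes gave 23.4% called lower and 23.6% higher in that arm. In males at 5 weeks 39 of 83 subunits were called lower and 1 higher, against 18.7% and 16.0% of all tested genes. For females the counts were 43 lower and 1 higher of 82 at 1 week, against 21.8% and 23.9% of all genes, and 62 lower and 0 higher of 82 at 5 weeks, against 19.1% and 22.9% of all genes. The changes were small. Called decreases spanned log2 fold changes of -0.40 to -0.10 in males at 1 week, -0.40 to -0.13 in males at 5 weeks, -0.38 to -0.10 in females at 1 week and -0.36 to -0.11 in females at 5 weeks. Median log2 fold changes over the tested subunits were -0.16, -0.14, -0.12 and -0.20 in these 4 arms, where the medians of all genes were 0.01, 0.00, 0.01 and 0.01. In females at 1 week 19 of the 43 lower subunits kept their call once the share of ribosomal RNA entered the model as a covariate, which is 23.2% of those tested, against 10.7% of all genes called lower in that fit. The median of the subunits was then -0.14. That share separates the sides in this arm, and its part in the result was not tested.

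At 24 h no subunit passed the test by edgeR, limma-voom or DESeq2, while 14.1% of all genes were called by edgeR in that arm, 8.23% higher and 5.90% lower. The edgeR test left 8 of 82 subunits at an unadjusted p under 0.05, against 4803 of 18125 among all genes. The smallest adjusted p of a subunit was 0.0568. The median log2 fold change of the subunits was 0.04, against -0.01 for all genes. Of their estimates 20 of 82 were below 0, or 24.4%, against 52.4% of all genes. Without IL replicate 1, in which Atp5if1, Cox7b, Cox7c, Ndufb3 and Uqcrh read low, 11 of 82 subunits were called higher. The share of all genes called in that fit is not given here, so the count cannot be set against it.

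Of the 82 subunits tested in all arms, 32 were called lower in all 4 late arms, 13 in 3, 8 in 2, 11 in 1 and 18 in none. The 32 are 39.0% of these subunits, against 10.9% of all genes tested in every arm, and the 18 are 22.0%, against 66.6%. Estimates were below 0 in all 4 late arms for 65 of the 82, or 79.3%, against 29.5% of all genes. The libraries of the sides did not overlap, with IL below CL, for 23 subunits in males at 1 week, 19 in males at 5 weeks, 14 in females at 1 week and 46 in females at 5 weeks, where all tested genes gave 11.0%, 10.9%, 9.53% and 9.61%. At 24 h that count was 0, against 1.85% of all genes. Of the 43 subunits lower in females at 1 week, 40 were also called lower in males, which is 93.0% of the female list and 80.0% of the male list of 50. Over all genes the lower calls shared at 1 week made up 80.5% of the female and 71.9% of the male list. At 5 weeks all 39 male calls were among the 62 female calls, which is 62.9% of the female list, and over all genes the shared calls made up 69.7% of the female and 68.1% of the male list.

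**Figure D2:**
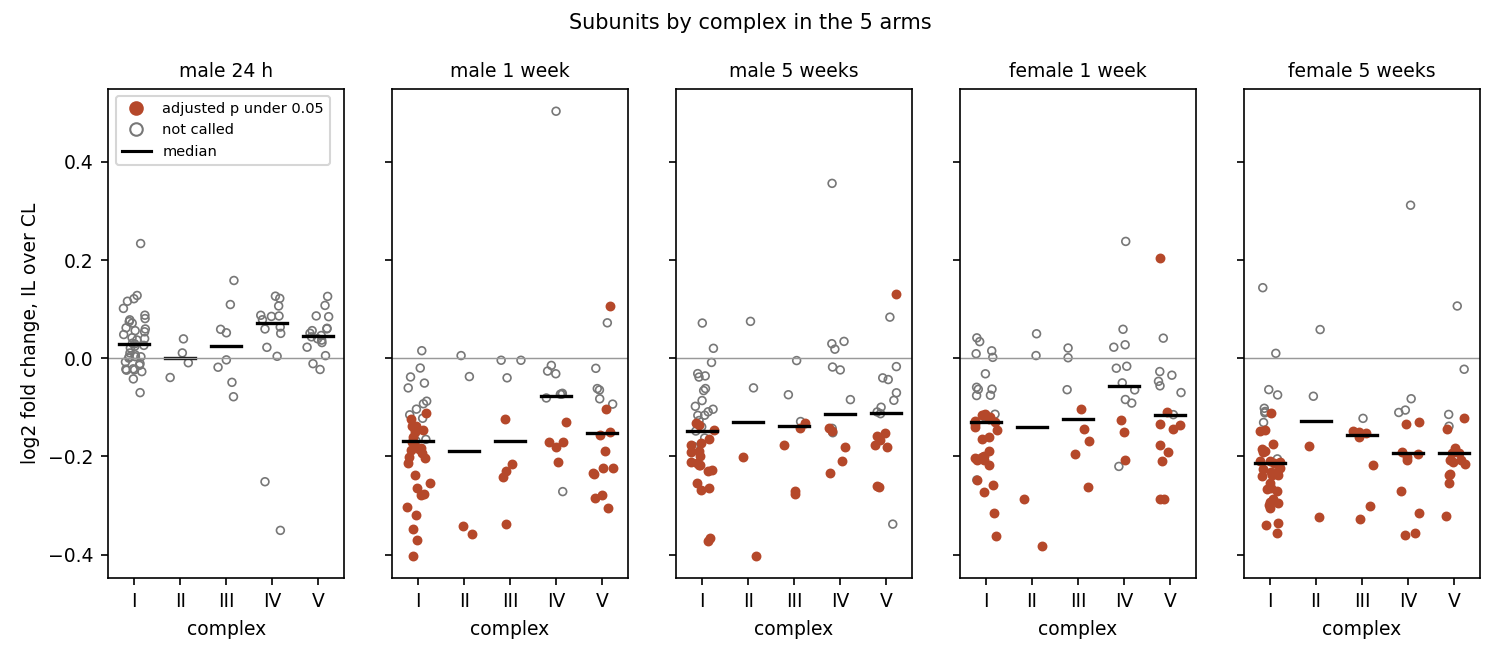
Each point is 1 subunit, the vertical axis gives its log2 fold change of IL over CL ganglia, columns are the complexes, and panels are the 5 arms. Filled points passed the test at an adjusted p under 0.05, and black lines are medians, which lie between 0.00 and 0.07 at 24 h and between -0.21 and -0.06 in the later arms.

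Complex I, the NADH dehydrogenase, had 27, 20, 24 and 30 of 39 tested subunits called lower in males at 1 week, males at 5 weeks, females at 1 week and females at 5 weeks, with none higher. Its catalytic core of 7 nuclear-encoded subunits, grouped after the values were seen, had 7, 5, 7 and 7 called lower. Ndufs1 (GeneID 301458, chromosome 9, bases 64546430 to 64579751, minus strand, mRatBN7.2), the largest subunit of the arm that takes up NADH and a carrier of iron-sulphur clusters, had the lowest estimate of complex I in the 4 late arms except females at 5 weeks. Its lowest, median and highest levels in males at 1 week were 139, 146 and 157 CPM in IL, against 188, 191 and 210.2 CPM in CL ganglia (log2 fold change -0.40, SE 0.03, adjusted p = 3.98e-10). The male 5 week libraries read 140.1, 152, 160.1, 142 and 142 CPM in IL, against 181, 192, 196, 189.6 and 193 CPM in CL ganglia (log2 fold change -0.37, SE 0.04, adjusted p = 6.85e-08). Neither pair of groups overlapped. For females at 1 week the lowest, median and highest levels were 142, 154 and 176 CPM in IL, against 187, 201 and 215 CPM in CL ganglia (log2 fold change -0.36, SE 0.04, adjusted p = 5.69e-10). At 5 weeks they were 148, 162 and 174 CPM in IL, against 193, 198 and 209 CPM in CL ganglia (log2 fold change -0.30, SE 0.04, adjusted p = 2.57e-07), and again the sides stood apart. At 24 h Ndufs1 averaged 196 ± 6.70 CPM on the injured side and 199 ± 7.00 CPM on the opposite side (SD, n = 6 each), and it was not called (adjusted p = 0.776).

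Other core subunits of complex I had estimates nearer to 0 than Ndufs1 in males and in females at 1 week. Ndufv1, which binds NADH and the flavin, had log2 fold changes of -0.19, -0.20, -0.13 and -0.18 in males at 1 and 5 weeks and females at 1 and 5 weeks, and all 4 were called. Ndufs3, of the arm that links the NADH site to the membrane, had -0.35, -0.17, -0.21 and -0.34, and its IL libraries lay below the CL libraries in males at both times and in females at 5 weeks. Ndufs7, carrier of the last iron-sulphur cluster before ubiquinone, had -0.15, -0.15, -0.22 and -0.22, and the male 5 week value was not called (adjusted p = 0.103). Leaving out single libraries ended its call in males at 1 week in 8 of 14 cases. Ndufv2, an iron-sulphur subunit beside Ndufv1 that is named here after its values were seen, had -0.37, -0.26, -0.26 and -0.30, with no overlap in any of the 4 arms.

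Among accessory subunits of complex I, which surround the core and are needed to build it, the 10 genes named Ndufb had 7, 7, 7 and 8 called lower in the same order of arms. The 15 genes named Ndufa had 8, 7, 9 and 11, and these were grouped by name, with Ndufa4, Ndufa4l2 and Ndufa10l1 among them. Ndufb10, of the membrane arm, averaged 63.0 ± 4.31 CPM on the injured side and 78.5 ± 1.81 CPM on the opposite side in males at 1 week (SD, n = 7 each). Its log2 fold changes were -0.32, -0.27, -0.32 and -0.25, and its sides did not overlap in any of the 4 arms. Ndufb3, also of the membrane arm, reached 32.2, 34.8 and 36.0 CPM (lowest, median, highest) in IL, against 41.2, 43.3 and 49.1 CPM in CL ganglia of females at 5 weeks, which did not overlap (log2 fold change -0.36, SE 0.05, adjusted p = 5.51e-07). In females at 1 week it stood at 34.3, 36.4 and 39.6 CPM in IL, against 36.0, 41.2 and 43.6 CPM in CL ganglia, and these overlapped (log2 fold change -0.15, SE 0.05, adjusted p = 0.00981). Ndufc1, a small membrane subunit, had -0.25, -0.04, -0.12 and -0.27 and was called in males at 1 week and females at 5 weeks. Ndufb11, likewise of the membrane arm, had -0.09, -0.13, 0.01 and -0.11 and was called at 5 weeks in both sexes. Ndufa3 had -0.12, -0.22, -0.14 and -0.27, called in all but males at 1 week.

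Complex I also held 7 members called lower in no late arm, which were Ndufa13, Ndufa4l2, Ndufa7, Ndufb2, Ndufb4, Ndufs6 and Ndufv3, named here because the count is small. Ndufs6 had a mean of 3.76 CPM in CL libraries of the first table and 0.806 CPM in those of the second, so its level differs by table and its value is uncertain. Counts were fractional in over 50% of libraries for 29 of the 88 subunits, as counting gives when a read is divided among several genes, and their values are less certain. Gene spans of 23 subunits overlap another annotated gene, 18 of them on the opposite strand, and the strand setting of the counting is not given in the sources used here. Ndufs1, Ndufv1 and Sdhb had whole counts in all 62 libraries.

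Complex II, succinate dehydrogenase, is the only complex that is wholly nuclear-encoded and also an enzyme of the citrate cycle, and its 4 genes split evenly. Sdha, the flavoprotein that oxidises succinate, and Sdhd, a membrane anchor, were called lower in all 4 late arms. Sdhb, the iron-sulphur subunit, and Sdhc, the other membrane anchor, were called in none. Starts of these genes are shown because members of a single enzyme parted here. Each line gives 250 bases before to 50 bases after the annotated start from RefSeq on GRCr8, 5′ to 3′ on the gene's strand, with capitals for matches to 4 motifs described further on. The windows are chr1:30764303-30764602, plus strand for Sdha, chr8:59850592-59850891, minus strand for Sdhd, chr5:158547684-158547983, plus strand for Sdhb and chr13:86097976-86098275, minus strand for Sdhc.
Sdha: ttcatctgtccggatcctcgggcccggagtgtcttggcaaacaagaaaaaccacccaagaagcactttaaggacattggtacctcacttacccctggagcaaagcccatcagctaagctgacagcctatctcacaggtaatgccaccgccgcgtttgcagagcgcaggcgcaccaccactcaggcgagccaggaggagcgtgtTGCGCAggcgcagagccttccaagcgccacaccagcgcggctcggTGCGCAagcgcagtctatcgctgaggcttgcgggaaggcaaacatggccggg
Sdhd: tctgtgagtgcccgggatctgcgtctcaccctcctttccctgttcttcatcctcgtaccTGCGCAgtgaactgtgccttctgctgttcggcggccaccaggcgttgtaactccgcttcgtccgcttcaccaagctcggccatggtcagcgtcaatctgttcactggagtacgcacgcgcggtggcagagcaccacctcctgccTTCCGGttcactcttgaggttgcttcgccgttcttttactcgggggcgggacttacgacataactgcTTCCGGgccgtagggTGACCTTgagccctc
Sdhb: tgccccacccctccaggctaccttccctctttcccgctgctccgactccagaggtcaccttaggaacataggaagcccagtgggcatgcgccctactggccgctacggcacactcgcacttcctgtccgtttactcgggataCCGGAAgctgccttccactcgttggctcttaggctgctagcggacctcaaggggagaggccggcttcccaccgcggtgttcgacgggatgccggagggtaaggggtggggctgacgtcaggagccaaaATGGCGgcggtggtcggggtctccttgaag
Sdhc: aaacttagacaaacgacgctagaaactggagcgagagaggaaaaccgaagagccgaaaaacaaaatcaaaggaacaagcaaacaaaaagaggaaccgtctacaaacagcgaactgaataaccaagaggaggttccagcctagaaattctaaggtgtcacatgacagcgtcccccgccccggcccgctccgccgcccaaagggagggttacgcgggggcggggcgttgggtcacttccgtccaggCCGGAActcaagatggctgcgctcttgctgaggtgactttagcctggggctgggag
Capitals in Sdha mark the nuclear respiratory factor 1 core, which begins 47 and 2 bases before the start. In Sdhd they mark that core 191 bases before the start, the ETS core 47 bases before and 20 bases after it, and an estrogen-related receptor core 35 bases after it. Sdhb carries the ETS core 108 bases before and the YY1 core 20 bases after the start, and Sdhc the ETS core 6 bases before it. Both genes that were lower hold the nuclear respiratory factor 1 core in this window, and both that were not called lack it, which with 4 genes is a description only.

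Sdha (GeneID 157074, chromosome 1, bases 28935965 to 28960936, plus strand, mRatBN7.2) had a lowest, median and highest level of 152, 162 and 178 CPM in IL, against 194, 213 and 217 CPM in CL ganglia of males at 1 week (log2 fold change -0.36, SE 0.04, adjusted p = 3.88e-08). The male 5 week libraries read 179.7, 168, 177, 159 and 162 CPM in IL, against 212, 229.9, 211, 229 and 236 CPM in CL ganglia (log2 fold change -0.40, SE 0.05, adjusted p = 2.24e-07). No library of either side reached the other in males. Females at 1 week had 152, 166 and 182 CPM in IL, against 204, 221 and 229 CPM in CL ganglia (log2 fold change -0.38, SE 0.03, adjusted p = 7.61e-12), which is the smallest adjusted p of any subunit in that arm. Females at 5 weeks had 165, 179 and 188 CPM in IL, against 217, 224 and 228 CPM in CL ganglia (log2 fold change -0.32, SE 0.04, adjusted p = 5.43e-09), again without overlap. At 24 h Sdha averaged 202 ± 7.62 CPM on the injured side and 208 ± 5.87 CPM on the opposite side (SD, n = 6 each) and was not called (adjusted p = 0.543).

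Sdhd (GeneID 363061, chromosome 8, bases 50944717 to 50954298, minus strand) averaged 68.1 ± 3.83 CPM on the injured side and 86.4 ± 2.29 CPM on the opposite side in males at 1 week (SD, n = 7 each; log2 fold change -0.34, adjusted p = 1.73e-08). Its male 5 week libraries read 70.1, 73.7, 74.9, 71.6 and 73.5 CPM in IL, against 80.4, 83.6, 77.1, 88.4 and 88.6 CPM in CL ganglia. The sides did not overlap in any late arm, and log2 fold changes in males at 5 weeks and females at 1 and 5 weeks were -0.20, -0.29 and -0.18. Sdhb (GeneID 298596, chromosome 5, bases 153264906 to 153285570, plus strand) averaged 91.8 ± 3.04 CPM on the injured side and 94.2 ± 3.02 CPM on the opposite side in males at 1 week and 85.8 ± 3.37 CPM on the injured side and 90.6 ± 2.77 CPM on the opposite side in females at 5 weeks, and the sides overlapped in all arms. Its log2 fold changes were -0.04, -0.06, 0.01 and -0.08 in the late arms, with a smallest adjusted p of 0.0632 in females at 5 weeks. RLE scaling, DESeq2 and fits of fewer or more groups called that decrease, at log2 fold changes near -0.09. Sdhc (GeneID 289217, chromosome 13, bases 83544652 to 83565560, minus strand) had log2 fold changes of 0.01, 0.08, 0.05 and 0.06, with adjusted p between 0.0959 and 0.897, and averaged 79.3 ± 3.60 CPM on the injured side and 76.6 ± 1.95 CPM on the opposite side in females at 1 week (SD, n = 7 each). Sdhc was called higher in males at 5 weeks in the joint fit (adjusted p = 0.0462) and without CL replicate 2 (0.0251) or IL replicate 1 (0.0344), and at 1 week in both sexes against the opposite side of the other week (0.00804 in males and 0.00378 in females).

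**Figure D3:**
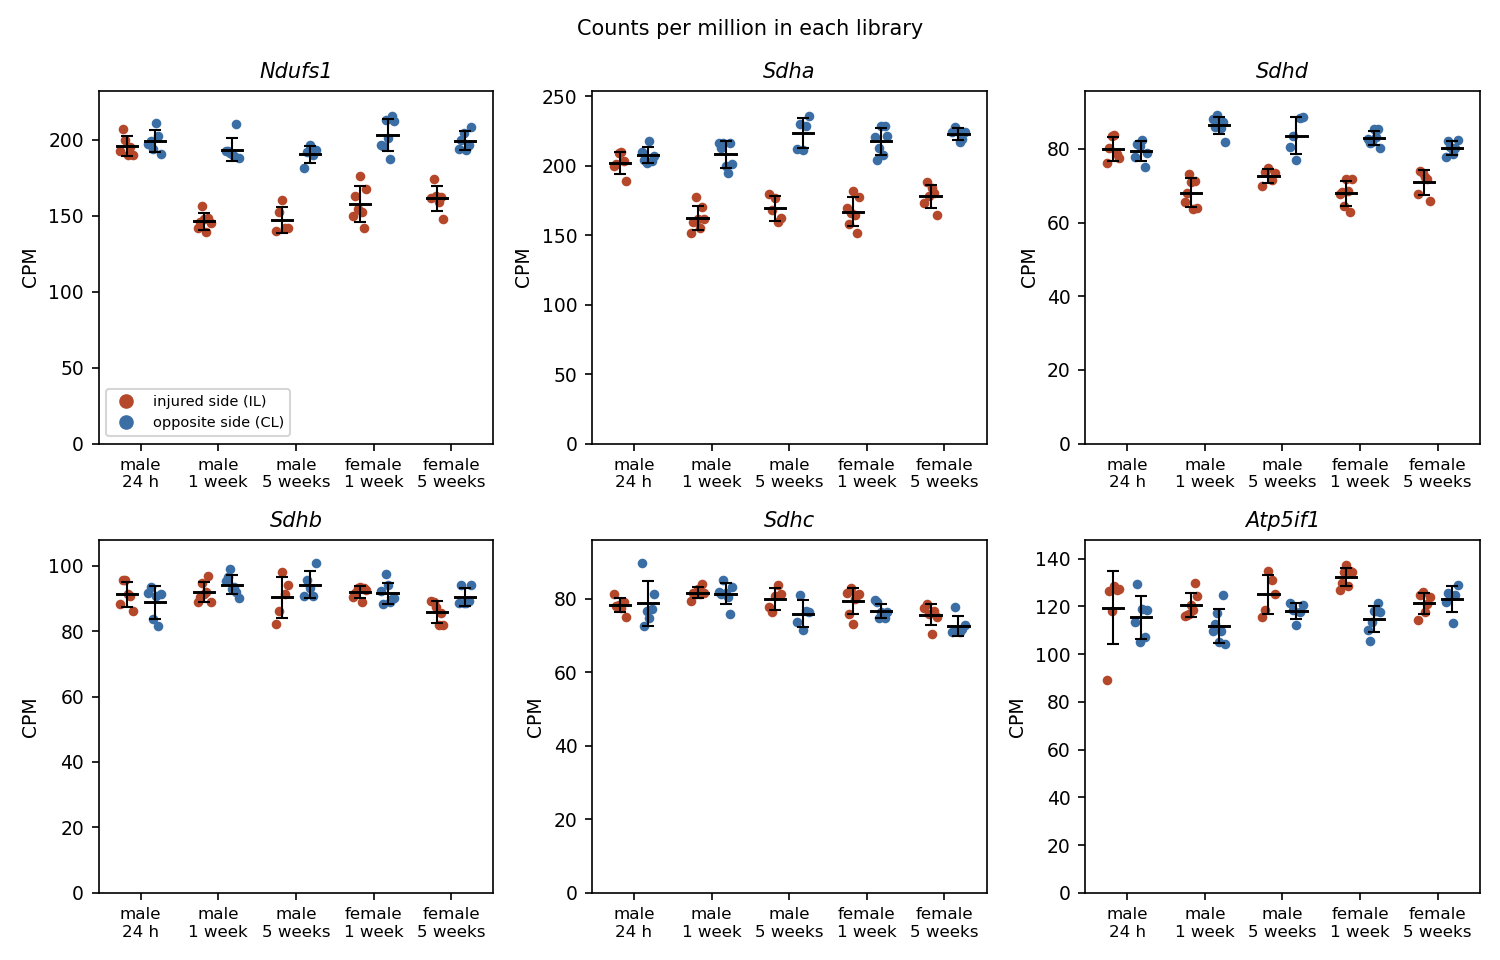
Each point is 1 library, the vertical axis gives CPM from 0, and bars show the mean and SD of each group. Ndufs1, Sdha and Sdhd are lower on the injured side without overlap in all 4 late arms, Sdhb and Sdhc overlap in every arm, and Atp5if1 is higher without overlap in females at 1 week.

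Complex III, the cytochrome bc1 complex, had 5, 5, 5 and 7 of 8 subunits called lower in the 4 late arms and none higher. Uqcrc2, a core protein that faces the matrix, moved most in males. Its lowest, median and highest levels at 1 week were 129, 136 and 148 CPM in IL, against 162, 172 and 188 CPM in CL males (log2 fold change -0.34, SE 0.04, adjusted p = 1.94e-07). Log2 fold changes in males at 5 weeks and females at 1 and 5 weeks were -0.28, -0.26 and -0.22, all called, and the sides overlapped only in females at 1 week. Uqcrfs1, the Rieske iron-sulphur protein that accepts electrons from ubiquinol, had -0.23, -0.14, -0.20 and -0.15 in the 4 late arms and was called in each. Uqcrc1, the partner of Uqcrc2, had -0.12, -0.13, -0.10 and -0.15, and its male 5 week call was lost without the low-count filter (adjusted p = 0.0841), in a fit of the compared groups alone (adjusted p = 0.106), in the joint fit of both tables (adjusted p = 0.0555) and in 5 of 10 leave-one-out fits. Uqcrb, which helps bind ubiquinone, and Uqcrh, the hinge protein that touches cytochrome c1, were lowest in females at 5 weeks, at -0.33 and -0.30. Uqcr11 was the only complex III gene called in no arm.

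Complex IV, cytochrome c oxidase, had 5, 5, 3 and 10 of 14 tested subunits called lower in the late arms, which is the smallest share of any complex in all of these arms but females at 5 weeks. Cox5b, a subunit that caps the matrix side, and Cox7b, a small membrane subunit, were called in all 4. Cox5b had a lowest, median and highest level of 101, 109.7 and 116 CPM in IL, against 128, 132 and 133 CPM in CL ganglia of females at 5 weeks, with no overlap (log2 fold change -0.27, SE 0.05, adjusted p = 1.17e-04). In the other late arms its sides overlapped, at log2 fold changes of -0.21, -0.21 and -0.21. Cox7b had 64.9, 74.0 and 83.3 CPM in IL, against 86.9, 94.6 and 101 CPM in CL ganglia of females at 5 weeks, again without overlap (log2 fold change -0.36, SE 0.06, adjusted p = 3.63e-06). Its calls in males at 5 weeks (adjusted p = 0.0342) and females at 1 week (adjusted p = 0.0488) were close to the threshold and were lost without the low-count filter. The male call was also lost with only the compared groups (adjusted p = 0.135), in the joint fit (adjusted p = 0.109) and in 6 of 10 leave-one-out fits. For females at 1 week it was also lost with the stricter filter, the ribosomal RNA covariate, limma-voom, the opposite side of the other week (adjusted p between 0.0521 and 0.258) and in 10 of 14 leave-one-out fits. Cox7c had -0.17, -0.23, -0.08 and -0.31 and was not called in females at 1 week (adjusted p = 0.165). Cox7a2l, which joins complexes III and IV into supercomplexes, had -0.17, -0.18, -0.09 and -0.21, also short of a call in females at 1 week.

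Isoforms of complex IV differ between tissues, and in these ganglia the general forms carried nearly all reads. Per kilobase of exon, CL ganglia held 453 and 442 CPM of Cox6a1 in the first and second table, and 427 and 427 CPM of Cox4i1, the general form of the largest nuclear-encoded subunit. Cox4i2, the lung form, stood at 2.10 and 2.52 CPM per kilobase and Cox6b2, the testis form, at 1.79 and 2.03. Cox6a2 and Cox8b, the heart and muscle forms, summed to 132 and 118 counts over all 62 libraries, and Cox7b2 and Cox8c to 26.0 and 7, so these 4 were not tested. Cox4i1 was called lower at 5 weeks, at -0.14 in males and -0.19 in females, where it averaged 273 ± 11.4 CPM on the injured side and 312 ± 8.88 CPM on the opposite side (SD, n = 6 each). The male call was lost without the low-count filter (adjusted p = 0.0740), with only the compared groups (0.0719), in the joint fit (0.0642), against the opposite side of the other week (0.418, at a log2 fold change of -0.05) and in 5 of 10 leave-one-out fits. Cox6a1 had -0.13, -0.14, -0.15 and -0.20 and missed the threshold in males at 5 weeks. Its call in males at 1 week was lost in 8 of 14 leave-one-out fits. Cox5a, Cox8a and Cox4i2 were called in females at 5 weeks alone among the arms, at -0.13, -0.13 and -0.36, and each call was lost without the low-count filter. Leaving out single libraries ended these calls in 7, 6 and 7 of 12 cases. With the replicate number of each arm as a block Cox8a (adjusted p = 0.0622) and Cox4i2 (adjusted p = 0.0516) lost their calls. Cox5a and Cox4i1 in males at 1 week, Cox6a1 in males at 5 weeks and Cox7a2l in females at 1 week then gained a call for a decrease (adjusted p = 0.00961, 0.0440, 0.0220 and 0.0333). Cox6b1, Cox6b2 and Cox7a2 were called in no arm, with late estimates of -0.07, -0.08, -0.05 and -0.11 for Cox6b1, 0.50, 0.36, 0.24 and 0.31 for Cox6b2 and -0.03, 0.03, 0.06 and -0.11 for Cox7a2. The block called Cox6b2 higher in males at 1 week (adjusted p = 0.0174), at about 1 CPM. Ndufa4, by far the more abundant of its pair at 197 and 193 CPM per kilobase, had -0.12, -0.19, -0.06 and -0.24, called in all but females at 1 week. Ndufa4 lost its call in males at 1 week in 5 of 14 leave-one-out fits. Ndufa4l2, its hypoxia-linked relative, stood at 2.06 and 1.90 CPM per kilobase and was not called in any arm.

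Complex V, the ATP synthase, had 11 of 18, 7 of 18, 9 of 17 and 13 of 17 tested subunits called lower in the late arms, and it held both members that were called higher anywhere. The catalytic pair of its head, Atp5f1a and Atp5f1b, was lower in all 4 late arms. Atp5f1a (GeneID 65262, chromosome 18, bases 71292406 to 71300342, plus strand, mRatBN7.2) had a lowest, median and highest level of 473, 495 and 547 CPM in IL, against 597, 622 and 643 CPM in CL ganglia of males at 1 week (log2 fold change -0.30, SE 0.03, adjusted p = 3.77e-08). In males at 5 weeks the libraries read 504, 516, 546, 508 and 511 CPM in IL, against 597, 626, 597, 629 and 652 CPM in CL ganglia (log2 fold change -0.26, SE 0.04, adjusted p = 8.83e-06). Females had 462, 494 and 525 CPM in IL, against 572, 605 and 626 CPM in CL ganglia at 1 week (log2 fold change -0.29, SE 0.03, adjusted p = 1.35e-10), and the sides overlapped in none of the 4 late arms. Atp5f1b, the most abundant subunit of all at 631 and 606 CPM per kilobase, averaged 945 ± 20.6 CPM on the injured side and 1092 ± 34.2 CPM on the opposite side in females at 5 weeks (SD, n = 6 each), and its late log2 fold changes were -0.22, -0.18, -0.19 and -0.21. Atp5f1d and Atp5f1e, of the central stalk, were called in no arm. In the peripheral stalk, which holds the head still, Atp5po, the subunit that ties the stalk to the head, had -0.28, -0.26, -0.29 and -0.32, with no overlap in any late arm. The 4 stalk genes, grouped after the values were seen, had 4, 2, 3 and 4 called lower.

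The c subunit, which forms the rotor ring, is encoded by 3 genes for the same mature protein, and they moved apart. Atp5mc3 had -0.28, -0.18, -0.21 and -0.25, called lower in all 4 late arms, and Atp5mc1 was called lower in all but males at 5 weeks. Atp5mc2 had 0.07, 0.13, 0.04 and 0.11. In males at 5 weeks its libraries read 80.6, 79.9, 85.8, 79.4 and 87.2 CPM in IL, against 73.5, 72.9, 77.3, 73.9 and 79.4 CPM in CL ganglia, and this gain was called (log2 fold change 0.13, SE 0.05, adjusted p = 0.0358). The sides overlapped, the call was lost with ribosomal RNA as a covariate (adjusted p = 0.127) and in 4 of 10 leave-one-out fits, and 83.9% of libraries had a fractional count for this gene.

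Atp5if1 (GeneID 25392, chromosome 5, bases 144738950 to 144742668, minus strand, mRatBN7.2), the inhibitor that stops the ATP synthase from running backwards and splitting ATP, was called higher in both sexes at 1 week, unlike most members. Its start is shown for the contrast with Ndufs1, the subunit with the steepest fall at 1 week in males. The windows are chr5:150026628-150026927, minus strand for Atp5if1 and chr9:72073556-72073855, minus strand for Ndufs1 on GRCr8 from RefSeq, with capitals for the same 4 motifs.
Atp5if1: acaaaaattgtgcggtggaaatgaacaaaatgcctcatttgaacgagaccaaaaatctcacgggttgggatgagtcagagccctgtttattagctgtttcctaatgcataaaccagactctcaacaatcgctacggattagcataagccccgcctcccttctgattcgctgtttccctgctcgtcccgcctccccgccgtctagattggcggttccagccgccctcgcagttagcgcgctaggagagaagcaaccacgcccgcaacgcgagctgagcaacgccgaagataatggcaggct
Ndufs1: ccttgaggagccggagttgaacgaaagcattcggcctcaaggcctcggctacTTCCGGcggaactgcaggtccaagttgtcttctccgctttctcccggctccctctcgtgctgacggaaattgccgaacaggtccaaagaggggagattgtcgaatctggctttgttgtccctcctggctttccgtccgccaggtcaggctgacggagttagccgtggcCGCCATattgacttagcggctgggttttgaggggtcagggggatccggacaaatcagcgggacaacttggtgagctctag
None of the 4 motifs was found in the Atp5if1 window. Ndufs1 holds the ETS core 198 bases and the YY1 core 30 bases before its start. In females at 1 week Atp5if1 reached a lowest, median and highest level of 127, 134 and 137 CPM in IL, against 105, 118 and 121 CPM in CL ganglia, with no overlap and all 7 pairs higher (log2 fold change 0.20, SE 0.05, adjusted p = 0.00146). It was the 1 subunit above CL without overlap in that arm, against 11.3% of all genes. With ribosomal RNA share as a covariate the estimate was 0.15 and the call was lost (adjusted p = 0.288). In males at 1 week it stood at 116, 119 and 129.7 CPM in IL, against 104, 109.8 and 125 CPM in CL ganglia, which overlapped (log2 fold change 0.11, SE 0.04, adjusted p = 0.0319). That call was lost without the low-count filter (adjusted p = 0.0584), in the joint fit of both tables (adjusted p = 0.0612) and in 4 of 14 leave-one-out fits. At 5 weeks it was not called, with log2 fold changes of 0.08 in males and -0.02 in females.

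The change over time was tested as a difference between side differences. In males the side difference at 1 week was lower than at 24 h for 42 of 83 subunits and higher for none, where 12.0% of all genes were lower and 11.0% higher. Sdhd led with a difference of -0.35, SE 0.05, adjusted p = 1.39e-07. Ndufs1 (-0.38, SE 0.06, adjusted p = 6.06e-07), Atp5f1a (-0.29, SE 0.04, adjusted p = 1.62e-06) and Atp5mc3 (-0.37, SE 0.06, adjusted p = 2.64e-06) followed. The 24 h and 1 week ganglia stand in different tables, each side difference was taken within its own table, and time and table cannot be told apart in this comparison. Without the 24 h libraries numbered 5 and 6, whose sides did not vary together by number, 31 of 83 subunits were called lower. That is 37.3%, against 9.90% of all genes, in a setting chosen after the data were seen.

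From 1 to 5 weeks males showed no subunit with a changed side difference by edgeR, limma-voom or DESeq2 (4 of 83 at an unadjusted p under 0.05), and 0.211% of all genes were called, 0.0790% with a higher and 0.132% with a lower difference. In females 4 of 82 subunits had a lower side difference at 5 weeks than at 1 week, and 0 had a higher one, against 5.88% lower and 7.66% higher among all genes. They were Cox7c (difference -0.23, SE 0.07, adjusted p = 0.0278), Ndufb3 (difference -0.21, SE 0.07, adjusted p = 0.0373), Cox7b (difference -0.23, SE 0.08, adjusted p = 0.0388) and Atp5if1 (difference -0.23, SE 0.08, adjusted p = 0.0444). The count was 11 with the animal as a replicate block, 7 by DESeq2, 0 with the ribosomal RNA covariate and 0 without the low-count filter, so it depends on these choices. As a share of the tested subunits it was 4.88% in the reported fit, 13.4% with the block, against 7.49% of all genes, and 8.54% by DESeq2, against 6.28% of all genes. The mean summed share in females fell by 12.7% at 5 weeks, against 5.71% at 1 week, and that difference was not tested.

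No subunit passed the test of a difference between the sexes in its side difference. At 1 week the female minus male difference was called for 0 of 83 subunits by edgeR, limma-voom and DESeq2 (1 at an unadjusted p under 0.05), where 1.11% of all genes were called, 0.416% higher and 0.698% lower in females. At 5 weeks it was also 0 of 83 (13 at an unadjusted p under 0.05), where 2.11% of all genes were called, 1.55% higher and 0.562% lower in females. The replicate block gave 3 lower calls there, or 3.61% of the subunits, against 1.03% of all genes. Estimates at 5 weeks leaned to a deeper fall in females, with a median difference of -0.09 and 77 of 83 below 0, which is 92.8%, against 52.5% of all genes. With the trend of all genes on length removed, that median was -0.01, as it was for all genes. Cox7b had the smallest p there (difference -0.25, SE 0.08, adjusted p = 0.110). Levels on the opposite side were also compared between weeks, and in males the shares of subunits called were near those of all genes. In CL ganglia of males 7 of 83 subunits were higher and 3 lower at 5 weeks than at 1 week, against 7.34% and 6.20% of all genes, led by Ndufb11 (0.22, SE 0.04, adjusted p = 0.00239), Ndufa3 (0.33, SE 0.07, adjusted p = 0.00259), Ndufc1 (-0.26, SE 0.05, adjusted p = 0.00274) and Cox6b1 (0.19, SE 0.05, adjusted p = 0.00858). None of these 10 calls was kept with ribosomal RNA as a covariate, under which 0.774% of all genes were called higher and 1.16% lower. The estimates of the same 4 genes were then 0.17, 0.44, -0.30 and 0.27, so the calls were lost without the values shrinking in 3 of them. In CL ganglia of females edgeR called 0 of 82 (4 at an unadjusted p under 0.05) and DESeq2 called 1, against 10.7% of all genes, 3.13% higher and 7.55% lower at 5 weeks.

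Subunits called lower in every late arm had a greater annotated exonic length than those called lower in none. Median exonic length was 1072 bases for the 32 lower in all 4 arms, 752 for the 13 in 3, 674 for the 8 in 2, 496 for the 11 in 1 and 516 for the 18 in none. Across subunits Spearman's rho between log2 fold change and length was -0.43 in males at 1 week, -0.33 in males at 5 weeks, -0.34 in females at 1 week and -0.16 in females at 5 weeks (82 or 83 genes, which share libraries and are not independent). All tested genes gave -0.12, -0.10, -0.12 and 0.04. Genes with up to 1000 exonic bases had medians of 0.11, 0.09, 0.09 and 0.03, and longer genes -0.0017, -0.0095, 0.0070 and 0.014. The short subunits had -0.12, -0.12, -0.10 and -0.19 and the long ones -0.22, -0.17, -0.15 and -0.21. With the trend of all genes on length removed, the subunit medians were -0.35, -0.25, -0.27 and -0.29, and those of all genes -0.08, -0.04, -0.06 and -0.07. Level and read sharing moved with length too. Subunits lower in all 4 arms had a median of 107 CPM and fractional counts in 11.3% of libraries, against 56.5 CPM and 48.4% for those lower in none, so the parts of length, level and shared reads were not tested apart.

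**Figure D4:**
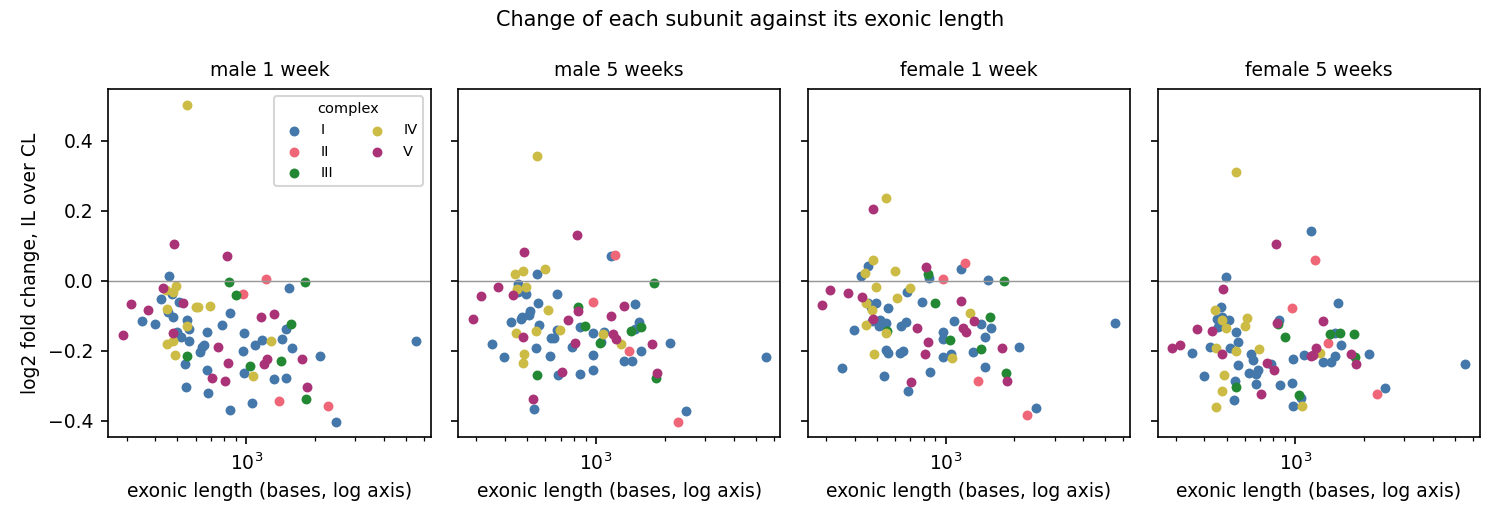
Each point is 1 subunit, the horizontal axis gives its exonic length in bases on a log scale, the vertical axis its log2 fold change of IL over CL, and colours mark the complexes in the 4 late arms. The longest subunits lie mostly below 0, and values nearer to 0 or above it occur mainly among the short ones, with Spearman's rho between -0.43 and -0.16.

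Starts of the subunit genes were searched for the cores of factors known to drive them. The motifs were TGCGCA for nuclear respiratory factor 1, CCGGAA for the ETS family that includes GABPA, ATGGCG for YY1 and AAGGTCA for estrogen-related receptors, on both strands and with overlaps allowed. RefSeq windows of 300 bases on GRCr8 were at hand for 75 of the 88. The nuclear respiratory factor 1 core was in 28.0% of them, against 7.24% of 33469 windows of all genes. The ETS core was in 37.3%, against 15.0%, the YY1 core in 30.7%, against 9.98%, and the estrogen-related receptor core in 13.3%, against 4.61%. Median GC content was 56.0% in subunit windows and 51.7% in all windows. The windows of all genes were not filtered by gene type or level, and expressed protein-coding genes alone were not compared. Among subunits lower in all 4 late arms 42.9% of 28 windows held the nuclear respiratory factor 1 core, against 12.5% of 16 windows of subunits lower in none. For the other motifs these shares were 35.7% and 31.2%, 28.6% and 25.0%, and 14.3% and 18.8%. A match describes the letters only.

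Genes that work beside the subunits were more often called lower than higher. Of 6 electron carriers and subunits outside the name pattern, 5, 4, 3 and 5 were called lower in the late arms, at a median log2 fold change of -0.21, -0.17, -0.11 and -0.19. Etfa, which passes electrons from fatty acid oxidation, had -0.49, -0.41, -0.42 and -0.40, and Cyc1, cytochrome c1 of complex III, -0.21, -0.20, -0.20 and -0.22. Of 44 assembly factors 24, 17, 21 and 23 were lower and 2, 3, 5 and 2 higher. Lyrm7, which hands the Rieske protein to complex III, had -0.74, -0.52, -0.73 and -0.54, Atpaf1, a chaperone of the ATP synthase head, -0.51, -0.47, -0.45 and -0.35, and Sdhaf4, which helps fit Sdha into complex II, 0.23, 0.17, 0.39 and 0.11. Of 17 citrate cycle genes 14, 13, 12 and 12 were lower and 0, 0, 0 and 1 higher, with Idh3b, of isocitrate dehydrogenase, at -0.34, -0.31, -0.30 and -0.29 and Pdhb, of pyruvate dehydrogenase, at -0.38, -0.22, -0.22 and -0.31.

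Glycolysis was mixed. Of 17 genes 8, 6, 8 and 5 were higher and 5, 3, 3 and 3 lower in the late arms, and 4 were higher at 24 h. Pgk1, a kinase that makes ATP in the pathway, had 0.31, 0.30, 0.41 and 0.22, whereas Pfkm, a phosphofructokinase, had -0.50, -0.41, -0.45 and -0.40 and Ldhb, of lactate dehydrogenase, -0.40, -0.47, -0.40 and -0.47. Among 15 regulators of mitochondrial biogenesis 7, 6, 6 and 5 were lower and 2, 2, 3 and 5 higher. Esrrg, an estrogen-related receptor, had -0.38 at 24 h and -0.91, -0.84, -0.94 and -0.62 later, called in every arm, and Pprc1, a coactivator, was called higher in every arm, at 0.38 at 24 h and 0.27, 0.25, 0.24 and 0.31 later. The mitochondrial ribosome had 37, 15, 17 and 36 of 76, 76, 75 and 75 tested genes lower and 1, 4, 2 and 0 higher. In males at 5 weeks and females at 1 week the lower counts were near the shares of all genes, 18.7% and 21.8%. The cytosolic ribosome had 81, 81, 72 and 67 of 96, 96, 90 and 90 tested genes higher and 1, 1, 0 and 1 lower. Its medians were 0.23, 0.22, 0.19 and 0.19, against 0.01 at 24 h. Of 11 cristae and fusion genes 5, 5, 5 and 7 were lower and 2, 1, 4 and 0 higher, and of 6 ATP and ion transporters 5, 2, 2 and 4 were lower and none higher. Uncoupling and antioxidant genes were mixed, with 4, 2, 3 and 4 of 9 lower and 2, 3, 3 and 1 higher. Sod2, the manganese superoxide dismutase of the matrix, was higher in all arms, at 0.30 at 24 h and 0.69, 0.52, 0.75 and 0.50 later. For the lists described by counts here, the shares of all genes called stand with the arms above.

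**Figure D5:**
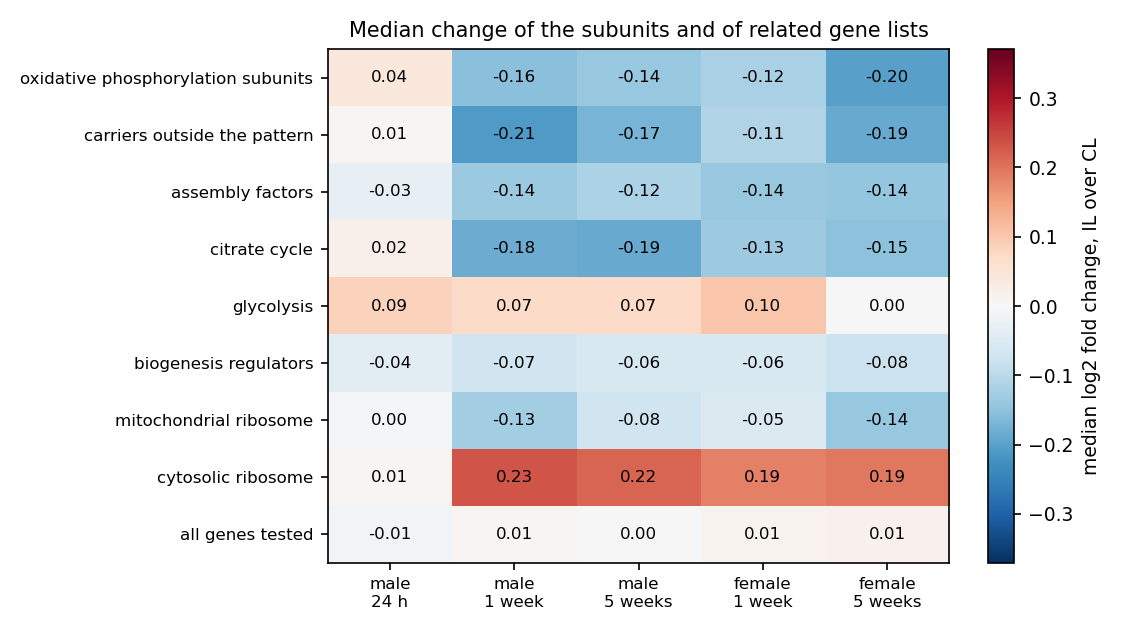
Cells give the median log2 fold change of IL over CL for the subunits, for 7 related lists and for all genes tested, with arms in columns. Subunits, carriers, assembly factors, citrate cycle and mitochondrial ribosome lie below 0 in the 4 late arms, and the cytosolic ribosome lies above 0 there.

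Cell type markers moved in the late arms, and a few were also called at 24 h, where no subunit was called. Of 14 sensory neuron markers 10, 9, 9 and 9 were called lower and 3, 3, 4 and 3 higher in the late arms, against 1 lower and 2 higher at 24 h. Their summed level ran from 25244 to 32746 CPM on the injured side and 36506 to 39840.3 CPM on the opposite side in males at 1 week, and from 31402 to 33828 CPM on the injured side and 38836 to 41964 CPM on the opposite side in females at 5 weeks, and the sides overlapped in none of the 4 late arms. Nefl, a neurofilament chain, had log2 fold changes of -0.90, -0.80, -0.83 and -0.67 and Snap25, of synaptic vesicle release, -0.77, -0.62, -0.63 and -0.73, whereas Stmn2, a growth cone protein, had 0.48, 0.56, 0.65 and 0.47. Of 11 macrophage markers 10, 4, 10 and 10 were higher, and none was called at 24 h, at a median log2 fold change of 0.26. They summed to 307 to 853 CPM on the injured side and 126 to 308 CPM on the opposite side in males at 1 week, and to 267 to 553 CPM on the injured side and 70.6 to 275 CPM on the opposite side in females at 5 weeks. Of 8 Schwann cell and myelin markers 7, 1, 7 and 2 were lower and 1, 1, 0 and 1 higher, of 6 satellite glia markers 2, 0, 0 and 0 were lower and 2, 2, 1 and 3 higher, of 6 fibroblast markers 1, 0, 0 and 4 were higher and 0, 0, 1 and 0 lower, and of 4 erythrocyte markers 4, 0, 0 and 0 were higher. Neutrophil markers were called higher in males at 1 week, for 3 of 3. At 24 h 1 of 3 neutrophil markers and 2 of 6 fibroblast markers were called lower and none higher. Their median log2 fold changes there were -1.77 and -0.44. Skeletal muscle markers, of a tissue rich in mitochondria, were at low level, and 3, 1, 2 and 0 of 6 were called lower in the late arms and 2 of 6 at 24 h. Their sums ran from 9.75 to 12.8 CPM on the injured side and 8.01 to 80.1 CPM on the opposite side in males at 1 week, with medians of 10.4 CPM in IL and 9.70 CPM in CL libraries. Adipocyte markers, at summed levels up to 36.5 CPM, had 1, 1, 1 and 1 called higher and 0, 0, 3 and 0 lower of 2, 2, 4 and 4 tested, against 0 higher and 3 lower of 4 at 24 h. T cell markers summed to at most 2.23 CPM in any library. Of 7 endothelial and mural markers 3 were higher in females at 5 weeks and 1 lower in females at 1 week. Of all tested genes 23.4%, 18.7%, 21.8% and 19.1% were called lower in the late arms and 23.6%, 16.0%, 23.9% and 22.9% higher. At 24 h 5.90% were lower and 8.23% higher. Counts of 1 or 2 in such short lists can lie near these shares. The part of the marker shifts in the subunit changes was not tested.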

How the data were processed

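RNA of 62 whole L4 ganglia was measured by poly-A RNA sequencing (TruSeq Stranded mRNA kit, single reads of 75 or 100 nt), per the labels' protocols. The build mRatBN7.2 is named in the submitters' processing notes, as are STAR 2.7.2b and featureCounts 1.6.4 of Subread, with bcl2fastq 2.20.0.422 and cutadapt 2.5, and the strand setting is not given in the sources used here. The authors deposited 2 tables of estimated counts per gene, not normalized, of which 74.1% and 78.1% of nonzero values were whole (equal to their rounded value). Counts were rounded, which moved no library total by more than 0.00140%. In each table genes were filtered with filterByExpr at a minimum count of 10 (18980 and 18125 genes kept), scaled by TMM and tested with edgeR 4.0.16's quasi-likelihood test on all groups, at a Benjamini-Hochberg adjusted p under 0.05. Comparisons across tables used a joint fit of 19209 genes. CPM are TMM-scaled, and percent shares are of raw totals. SE is the standard error of the log2 fold change. The script was checked on simulated counts.

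Members and lists were chosen with earlier results of these data known. Named members are those with the smallest p in each direction and arm and in the contrasts of time and sex, core subunits, tissue isoforms, and in each complex the largest fold and highest level per length. From the other lists the 3 genes of smallest p and chosen neuronal markers could be named, and names outside this rule were picked with values in view. A core subunit is not reported here by name. For the second table the labels give 1 animal code to both sides. In the first, replicate numbers pair the sides, since deviations of same-numbered libraries from their group means correlated at 0.222 to 0.470 at 1 week and 0.197 to 0.353 at 5 weeks. For males at 1 and 5 weeks the labels give no animal codes and do not show that the libraries of a group came from separate animals. The p-values there measure the spread between these samples. In males at 24 h numbers 5 and 6 correlated at 0.010 and 0.013. The main test left the pairing of sides out, and among the fits only the replicate block used it. Alternatives were RLE scaling, other filters, limma-voom 3.58.1, DESeq2 1.42.0, covariates, blocks, other sets of groups and leaving out each library. Libraries held 16933304 to 33495720 counts, and 5 to 7 libraries per group limit the precision.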

Additional observations from a re-analysis of the deposited data

Results flagged for a closer look

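The search covered 400 combinations of a group of libraries with a named subunit or with the summed share of the subunits. Chance alone gives a library far from the others of its group in about 1 in 20 of them. Such a library was found in 19, each time for a single subunit. Of these, 5 concern IL replicate 1 of males at 24 h, with 89.2 CPM of Atp5if1 (others 118 to 129 CPM), 77.5 CPM of Cox7b (others 97.5 to 104 CPM), 79.8 CPM of Cox7c (others 100.5 to 111 CPM), 36.1 CPM of Ndufb3 (others 41.2 to 44.1 CPM) and 97.7 CPM of Uqcrh (others 116 to 124 CPM). IL replicate 3 of males at 5 weeks was high for 3 genes, with 546 CPM of Atp5f1a (others 504 to 516 CPM), 153 CPM of Ndufa4 (others 128 to 135 CPM) and 39.1 CPM of Ndufb3 (others 31.7 to 33.4 CPM).

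Further single libraries stood apart on the injured side. Cox6b1 had 120.7 CPM in replicate 4 of females at 1 week (others 107 to 113 CPM), and Ndufb11 had 34.6 CPM in replicate 1 of males at 1 week (others 40.1 to 43.5 CPM). On the opposite side replicate 6 of males at 1 week had 210.2 CPM of Ndufs1 (others 188 to 193 CPM) and 35.4 CPM of Ndufc1 (others 29.2 to 31.1 CPM). Replicate 2 of females at 5 weeks had 86.6 CPM of Ndufb10 (others 77.1 to 80.4 CPM) and 77.8 CPM of Sdhc (others 71.0 to 72.8 CPM). Also on the opposite side, Atp5f1a had 569 CPM in replicate 4 of females at 5 weeks (others 602 to 620 CPM), Atp5mc2 had 78.8 CPM in replicate 1 and Cox5a 130.4 CPM in replicate 5 of males at 24 h (others 68.0 to 71.5 CPM and 153 to 163 CPM), Cox5b had 123 CPM in replicate 1 of males at 5 weeks (others 135 to 140 CPM), and Ndufb11 had 46.0 CPM in replicate 4 of females at 1 week (others 40.4 to 42.4 CPM).

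The test of the difference itself called subunits in 2 comparisons. In males 42 of 83 subunits had a lower side difference at 1 week than at 24 h, or 50.6%, against 12.0% of all genes. Sdhd (-0.35), Ndufs1 (-0.38), Atp5f1a (-0.29) and Atp5mc3 (-0.37) led on the log2 scale. In females 4 of 82 subunits had a lower side difference at 5 weeks than at 1 week, or 4.88%, which is below the 5.88% of all genes. They were Cox7c (-0.23), Ndufb3 (-0.21), Cox7b (-0.23) and Atp5if1 (-0.23). None was called with the ribosomal RNA covariate or without the low-count filter.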

How the results depend on the processing

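Counts of called subunits in the 4 late arms stayed within 1.5 times of 51, 40, 44 and 62 under RLE scaling, no filter or a stricter one, limma-voom, DESeq2, other sets of groups, the replicate block and the ribosomal RNA covariate, except for 19 in females at 1 week with that covariate. Leaving out 1 library gave 46 to 55 in males at 1 week, 27 to 47 in males at 5 weeks, 36 to 46 in females at 1 week and 53 to 65 in females at 5 weeks. At 24 h the count of 0 became 1 with the stricter filter (minimum count 50) and 1 with numbers 5 and 6 crossed in the block, a setting chosen after seeing the data, and 0 to 11 without 1 library (11 without IL replicate 1, 1 or 2 without CL replicates 1, 4 or 6). For the male difference of 1 week and 24 h, counted at 42, the range was 35 to 54. The female difference of 5 weeks and 1 week, counted at 4, was 0 with no filter, 7 with the stricter filter, 0 with ribosomal RNA, 11 with the replicate block, 7 by DESeq2, 8 with only the compared groups, 7 in the joint fit and 1 to 8 without 1 library. It was 1 or 2 without IL replicates 4 or 7 or CL replicates 1 or 2 at 1 week, and without IL replicates 1, 4 or 6 or CL replicates 2, 3, 5 or 6 at 5 weeks, 7 without CL replicate 4 and 8 without IL replicate 2 at 5 weeks. Female minus male differences were 0 to 0 at 1 week and 0 to 1 at 5 weeks without 1 library (1 without male IL replicate 1 or female IL replicate 3). With the block the count was 3 at 5 weeks, or 3.61%, against 1.03% of all genes called lower. The male difference of 5 weeks and 1 week stayed at 0 to 0. On the opposite side, the male count of 10 became 0 with the ribosomal RNA covariate and 6 to 9 without 1 library (6 without replicate 1 at 5 weeks), and the female count of 0 became 1 under RLE scaling, by DESeq2, with only the compared groups and in the joint fit, and 0 to 1 without 1 library (1 without replicate 4 at 1 week). The cause was not tested.

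The replicate block called 58, 46, 44 and 57 subunits in the late arms, 0 at 24 h and 47 for the male difference of 1 week and 24 h. In the late arms 67.5%, 54.2%, 52.4% and 69.5% of tested subunits were then lower, against 26.6%, 21.9%, 23.6% and 20.9% of all genes. Higher calls were 2.41%, 1.20%, 1.22% and 0% of subunits, against 27.3%, 19.1%, 25.9% and 25.1% of all genes. At 24 h all genes gave 9.53% higher and 7.82% lower. For the male difference 55.4% of subunits were lower and 1.20% higher, against 14.8% and 14.1% of all genes. No paired analysis was possible for the opposite-side comparisons because each replicate number of a week gives 1 library to them. Atp5if1 in males at 1 week reversed to -0.11 with the length trend removed. Of 3622 values of named subunits over all settings 3275 kept their direction and, where tested, their call, 170 lost and 54 gained a call. Removing the length trend, which gives no test, moved 122 values by more than the spread between replicates and reversed 1. Depth left Cox6a2, Cox7b2, Cox8b, Cox8c and Ndufb4l1-ps1 below the filter, so nothing is said of their change.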

Other observations

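The name pattern also matched 8 symbols that are not annotated as protein coding, and 7 of them were tested. Uqcrb-ps1 had log2 fold changes of -0.22 in males at 1 week (edgeR adjusted p = 0.00450) and -0.42 in females at 5 weeks (adjusted p = 0.00201), where Uqcrb itself had -0.24 and -0.33. Ndufs5-ps1 had -0.18 in males at 1 week (adjusted p = 0.0115) and -0.28 in females at 5 weeks (adjusted p = 0.00287), where Ndufs5 had -0.15 and -0.29. Cox6b1-ps1 had -0.16 in females at 5 weeks (adjusted p = 0.0135), where Cox6b1 had -0.11 and was not called. Reads shared between each gene and its copy cannot be told apart in these counts.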
